A study of Mus musculus with 2 samples.

Results

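Ly6c2-positive monocytes were the 532 of 22639 retained cells that met a rule on UMI counts (a UMI is 1 captured RNA molecule), 349 of 13915 in the Lyz2-icre library and 183 of 8724 in the control library. Both libraries were droplet-based 3-prime single-cell RNA sequencing of sorted live CD45-positive cells from tumours of MC38, a mouse colon carcinoma line. The Lyz2-icre library came from SPP1fl/fl-Lyz2-icre mice, in which both copies of Spp1 carry loxP sites and Cre recombinase is driven from the lysozyme 2 locus. The control library came from SPP1fl/fl mice, which carry the same floxed alleles without Cre. Spp1 encodes osteopontin, a secreted matrix protein and cytokine, and the study was set up to ask what macrophage osteopontin does in this tumour. Strain, age, time after implantation, the floxed exons and the number of mice were not given. Lyz2-driven Cre acts in monocytes, macrophages and neutrophils, so it does not single out 1 of them. Each genotype had 1 library, and the genotypes are therefore set side by side without a test. The 95% intervals express counting error alone. They leave out the spread between cells and between mice, and are too narrow for genes whose UMIs lie in few cells.

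Classical monocytes are made in the bone marrow and leave it through the chemokine receptor Ccr2. They carry the surface protein Ly6C, enter inflamed tissue and tumours, and there lose Ly6C while they take on macrophage or antigen-presenting features. In tumours they replenish macrophages, and interferon-gamma from T and NK cells turns on MHC class II, guanylate-binding proteins and the chemokine Cxcl9 in them.

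The monocytes were chosen by UMI counts of marker genes. Each had at least 2 UMIs of Ly6c2 (the Ly6C2 antigen), at least 2 of Tyrobp (an adaptor of myeloid receptors) and at least 1 of Csf1r (the receptor of macrophage colony-stimulating factor). The complement genes C1qa, C1qb and C1qc, which mark mature macrophages, had to stay under 0.3% of the cell's UMIs. No Cd3 chain and no Ncr1 or Klrb1c was allowed, at most 1 UMI of Cd209a and Siglech together, and under 1% of S100a8 and S100a9. These genes chose the cells, so their levels are not results. The limit on C1q left 3024 Lyz2-icre and 2635 control cells, and the limit on Ly6c2 left 672 and 405 of these. Cells just inside the Ly6c2 limit, with 2 UMIs, numbered 78 and 26 and had 1061 and 1541 CPM of Plac8 in the Lyz2-icre and control libraries (CPM is counts per 1000000, here a gene's summed UMIs over all UMIs of the class). The 115 and 83 cells just outside it, with 1 UMI, had 858 and 1423 CPM of the same gene. Across the C1q limit, Plac8 was at 594 and 1918 CPM in the 25 and 14 cells at 0.2 to 0.3%, and at 726 and 793 CPM in the 19 and 14 cells at 0.3 to 0.4%.

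The monocytes held 1837941 UMIs in the Lyz2-icre library and 1568454 in the control library. Depth differed: the median monocyte had 4409 UMIs and 1856 genes in the Lyz2-icre library, against 7629 UMIs and 2552 genes in the control library. Over all retained cells the medians were 6374 and 9379.5 UMIs. The median mitochondrial share of monocyte UMIs was 0.683% in the Lyz2-icre and 1.59% in the control library. The libraries shared 43 cell barcodes, of which 3 belonged to a monocyte of either library and 0 to monocytes of both. Cells came from animals of both sexes in each library: 171 Lyz2-icre and 121 control monocytes had Xist RNA and no Y-linked RNA, 86 and 42 had the reverse, and the rest had neither or both. The first are called female and the second male cells below.

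Monocytes made up 2.51% (2.25 to 2.78, Clopper-Pearson) of retained Lyz2-icre cells and 2.10% (1.81 to 2.42) of retained control cells, a ratio of 1.20 with a counting interval of 0.997 to 1.44 that spans 1. Of the cells outside the C1q macrophages they were 6.41% in the Lyz2-icre and 4.86% in the control library. In female cells the shares were 2.20% and 2.33%, and in male cells 3.51% and 2.34%. A rule on raw UMIs takes in fewer cells of a shallower library. When every retained cell was drawn down to 2000 UMIs and the same rule applied, 170 Lyz2-icre and 55 control cells met it, and the ratio of shares was 2.06. The difference in share and the difference in depth cannot be told apart here.

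The label was held against markers of 16 cell types. Many of these markers were also in the rule, so the check was read from the markers outside it, and as a description, since C1q levels separated the classes. Of the 14 classical monocyte markers 11 lay outside the rule, and 11 of 11 were higher in the monocytes than in C1q macrophages of the same library. Their summed level was 5543 CPM in Lyz2-icre and 7541 CPM in control monocytes, against 1043 and 1116 CPM in the C1q macrophages of those libraries. Of the 5 macrophage markers outside the rule 0 were higher in the monocytes, and their sum was 3843 CPM in Lyz2-icre and 4010 CPM in control monocytes, against 11677 and 12937 CPM in C1q macrophages. T, NK and plasmacytoid dendritic markers were largely shut out by the rule, and the 2 left of each list summed to at most 1.91 CPM. The 6 neutrophil markers, 2 of them in the rule, summed to 69.1 CPM in Lyz2-icre and 249 CPM in control monocytes. S100a8, which the rule limited, gave 4.35 and 137 CPM of this, and the 4 markers outside the rule 61.5 and 70.8 CPM. The 4 cDC2 markers (conventional dendritic cells) summed to 287 CPM in Lyz2-icre and 143 CPM in control monocytes, mostly Mgl2, and the 6 fibroblast or tumour markers to 53.9 and 374 CPM. No doublet caller was run, and 3 Lyz2-icre and 4 control monocytes exceeded 20000 UMIs.

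**Figure D1:**
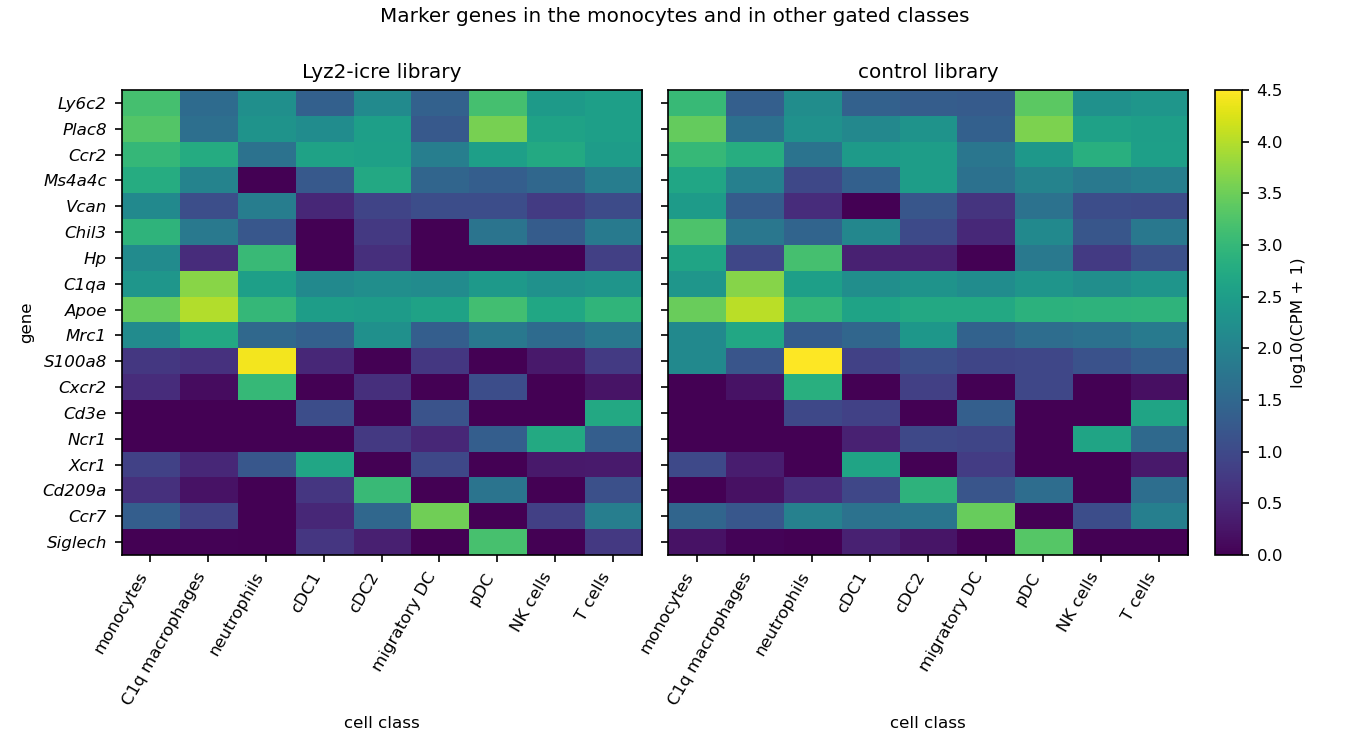
Level of marker genes (rows, log10 of CPM + 1) in the monocytes and other gated classes (columns) of the Lyz2-icre library (left) and the control library (right). Plac8 was at 1998 and 2734 CPM in the monocytes, against 43.3 and 44.6 CPM in C1q macrophages, while Xcr1 and Ccr7 were low in the monocytes and high in cDC1 and migratory DC. Levels of Ly6c2, C1qa, S100a8, Cd3e, Ncr1, Cd209a and Siglech in the monocytes were set by the rule.

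Set against C1q macrophages, the leading genes of the monocytes were ranked by whichever library gave the smaller absolute log2 ratio. The same direction was required in both libraries, so agreement between them was built into the ranking. Genes were called when the level differed by at least 1.5-fold, the counting interval excluded 1, and the higher class had at least 50 CPM and 30 UMIs. In the Lyz2-icre library 9.39% of 3333 genes were called higher and 6.54% lower, and in the control library 10.7% and 8.55% of 3368. Of 3156 genes that could be read in both libraries, 199 (6.31%) were called higher in monocytes in both and 164 (5.2%) lower in both. This is a description, since C1q and Ly6c2 levels separated the classes. Plac8, a small cysteine-rich protein of blood leukocytes, stood highest by log2 ratio, at 5.37 in the Lyz2-icre and 5.79 in the control library. Hp, which encodes the haemoglobin-binding protein haptoglobin, had 145 CPM in Lyz2-icre monocytes against 2.75 CPM in macrophages, and 429 CPM in control monocytes against 8.24 CPM in macrophages. Ifitm6 and Ifitm3 (interferon-induced membrane proteins), Slpi (a protease inhibitor), Chil3 (the chitinase-like protein Ym1), Gsr (glutathione reductase), Vcan (the proteoglycan versican), Ly6a2, Ly6i, Ms4a4c, Slfn1 and Mcemp1 were higher too, with log2 ratios between 1.91 and 4.74. Saa3 ranked high as well, but 383 of its 391 UMIs in the Lyz2-icre library lay in 1 cell.

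On the other side stood genes of resident and mature macrophages. Fcrls, a scavenger receptor-like protein, was at 7.07 CPM in Lyz2-icre monocytes against 149 CPM in macrophages, and at 12.8 against 253 CPM in the control library. The chemokine Ccl8 had 31.6 against 478 CPM in the Lyz2-icre library and 10.8 against 177 CPM in the control library. Pf4, Ccl12, Ms4a7, the tetraspanins Cd63 and Cd81, the metalloproteinase inhibitor Timp2, Hpgds (prostaglandin D synthase) and Pmp22 were lower too, with log2 ratios between -3.10 and -1.92. C1q macrophages that also carried 2 or more Ly6c2 UMIs numbered 347 in the Lyz2-icre and 158 in the control library. For Plac8, at 529 and 642 CPM, and Pf4, at 346 and 363 CPM, they lay between the classes. For H2-Ab1 they lay above both, at 6578 CPM in the Lyz2-icre and 5592 CPM in the control library.

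The monocytes were not uniform, and Plac8 divided them. After drawing each monocyte down to 2000 UMIs, which left out 13 Lyz2-icre cells and 1 control cell, a Plac8 UMI was seen in 229 of 336 Lyz2-icre monocytes (68.2%) and in 137 of 182 control monocytes (75.3%). This split was chosen after the values had been seen, and it is given without a test. Of 3031 genes read in both libraries, 133 (4.39%) were called higher and 112 (3.7%) lower in Plac8-positive than in Plac8-negative monocytes in both. With Plac8 went Ly6a2, Ifitm6, Gsr, Ccl5, Hp, Chil3, F13a1 (the A chain of coagulation factor XIII) and Adgre5 (the adhesion receptor CD97). Gsr was at 219 CPM with and 27.6 CPM without Plac8 in the Lyz2-icre library, and at 403 and 52.9 CPM in the control library. F13a1 was at 284 with and 82.7 CPM without Plac8 in the Lyz2-icre library, and at 394 and 86.2 CPM in the control library.

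Monocytes without a Plac8 UMI carried more RNA of Mmp12 (macrophage elastase), Mgl2 (a C-type lectin of dendritic cells and macrophages) and the neutrophil attractant Cxcl1. Cxcl1 lay in few cells, with 81.5% of its Lyz2-icre and 72.2% of its control monocyte UMIs in 10 cells. Of 20 cell cycle genes 11 could be read in both libraries, and 10 of these were called lower with Plac8 in both. Type I interferon genes lay on the other side, with 14 of 19 called higher with Plac8 in both libraries and 0 lower. Mmp12 was at 51.2 CPM with and 354 CPM without Plac8 in the Lyz2-icre library, and at 100.2 and 570.4 CPM in the control library. Mki67, the proliferation antigen Ki-67, was at 14.2 with and 177 CPM without Plac8 in the Lyz2-icre library, and at 19.9 and 161 CPM in the control library. H2-Ab1, the beta chain of MHC class II, was at 3784 with and 6077 CPM without Plac8 in the Lyz2-icre library, and at 1965 and 4228 CPM in the control library. Ccr2 was at 1042 and 967 CPM in the Lyz2-icre library and at 1052 and 988 CPM in the control library, so the recruitment receptor was nearly level across the split. The cells without Plac8 were deeper, with medians of 6079 UMIs in the Lyz2-icre and 9865 UMIs in the control library, against 3956 and 7178 UMIs in those with it. Cycling RNA sat in few cells: the 10 highest cells held 83.3% of Mki67 UMIs in the Lyz2-icre and 81.6% in the control library.

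Monocytes also differed in the share of their UMIs given to gene lists. The 9 MHC class II genes took a median of 1.43% of UMIs (quartiles 0.287 and 3.41) in Lyz2-icre monocytes and 0.40% (quartiles 0.15 and 1.95) in control monocytes. The 20 monocyte identity genes took 1.20% in Lyz2-icre and 1.5% in control monocytes. Over cells these shares ran against each other, with a Spearman rho of -0.62 over 336 Lyz2-icre cells and -0.47 over 182 control cells, all cells of a library sharing its preparation and depth. Monocyte identity and type I interferon genes ran together, at 0.44 in Lyz2-icre and 0.35 in control cells. Type I and interferon-gamma genes did so at 0.41 in Lyz2-icre and 0.45 in control cells.

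**Figure D2:**
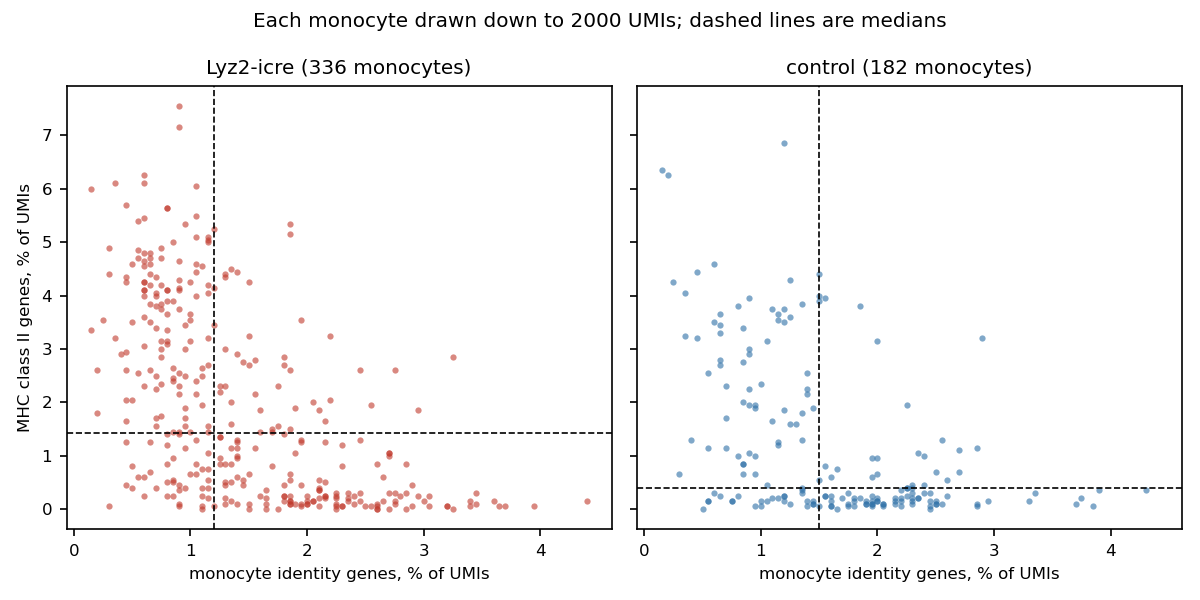
Share of each monocyte's UMIs in MHC class II genes (vertical, percent) against its share in monocyte identity genes (horizontal, percent), after drawing every cell down to 2000 UMIs, for 336 Lyz2-icre (left) and 182 control (right) monocytes. Dashed lines are medians: the MHC class II median is 1.43% in Lyz2-icre and 0.40% in control monocytes, and cells high in both shares are few.

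The targeted gene was nearly absent from Lyz2-icre monocytes. Spp1 (chromosome 5, 104435118 to 104441050, plus strand, mm10) gave 30 UMIs in 11 of 349 Lyz2-icre monocytes, against 1626 UMIs in 79 of 183 control monocytes. The levels were 16.3 CPM in Lyz2-icre and 1037 CPM in control monocytes, a ratio of 0.0157 (0.0106 to 0.0226) and a log2 ratio of -5.61 with 5 CPM added to both. Female cells gave -6.88 and male cells -5.90. In the control library the gene was uneven, since 10 cells held 64.8% of its UMIs and the highest cell had 219. At 2000 UMIs per cell, 1.49% of Lyz2-icre and 26.9% of control monocytes had a Spp1 UMI. In migratory dendritic cells, set beside them as a measure of free RNA, the shares were 1.20% (0.0305 to 6.53) in the Lyz2-icre and 7.48% in the control library, at median depths of 4922.5 and 8349 UMIs. In T cells they were higher, at 11.8% (9.14 to 15.02) in the Lyz2-icre and 20.5% (17.4 to 24.0) in the control library. The Lyz2-icre monocyte share did not exceed that of migratory dendritic cells beyond counting error. The control monocyte share, with an interval of 20.6 to 34.0, lay above that of migratory dendritic cells and overlapped that of T cells. By level T cells had 223 CPM in the Lyz2-icre and 365 CPM in the control library, against 23.7 and 59.0 CPM in migratory dendritic cells. T cells are therefore not a measure of free Spp1 RNA here, and nothing is read from the comparison with them. C1q macrophages were at 3.51 CPM in the Lyz2-icre and 629 CPM in the control library. Reads from the 3-prime end may lie outside the deleted stretch, whose exons the labels do not name, and such reads check the deletion only in part.

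Lyz2 (chromosome 10, 117277331 to 117282321, minus strand), the gene that carries the driver and encodes lysozyme, was at 6318 CPM in Lyz2-icre and 16023 CPM in control monocytes. The ratio was 0.394 (0.386 to 0.403) and the log2 ratio -1.34. Female cells gave -1.86 and male cells -0.95. Lyz2 RNA was seen in 306 of 349 Lyz2-icre and in 183 of 183 control monocytes. At equal depth the shares were 83.6% and 99.5%, against 32.7% and 65.4% of T cells, which do not make it (median depths before drawing down 3081 and 4618 UMIs). The Lyz2-icre monocytes without it were mostly female: 39 of 171 female cells (22.8%, 16.8 to 29.8) and 1 of 86 male cells (1.16%, 0.0294 to 6.31), at similar median depths of 4432 and 4571 UMIs. In the control library 0 of 121 female and 0 of 42 male cells lacked it, which for the smaller male group allows a share of up to 8.41% by the exact interval.

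Between the libraries, 99 of 3320 genes (2.98%) were called higher and 122 (3.67%) lower in Lyz2-icre than in control monocytes, by the same limits. The median log2 ratio over all 3320 genes was 0.02. Named below are genes from the 12 highest and 12 lowest log2 ratios among called genes that at least 10% of monocytes carried and whose level was at least 0.2 of that in the highest class, which leaves out genes that mainly belong to another class. The genes highest in Lyz2-icre monocytes were led by the interferon-induced chemokine Cxcl9, and those lowest by the granule protease Prtn3 and the cytokine Il1a. Prtn3 and Il1a passed the limits on level through the control library alone, so they had to be lower. Depth, mitochondrial share and S100a8, a neutrophil marker limited by the rule, differed between the libraries in the same cells, and their part in these differences was not tested.

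**Figure D3:**
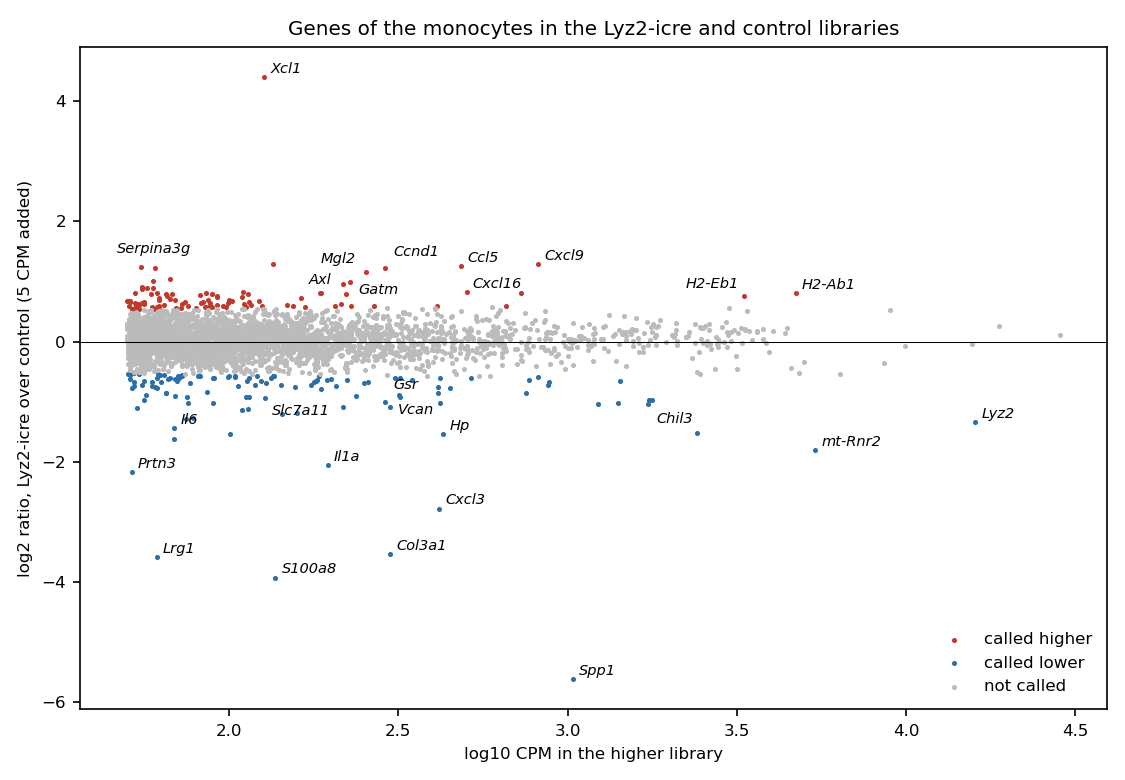
Log2 ratio of Lyz2-icre over control monocytes (vertical, 5 CPM added) against log10 CPM in the higher library (horizontal) for 3320 genes. Red points are the 99 genes called higher and blue points the 122 called lower in Lyz2-icre monocytes; Spp1 lies at -5.61, Lyz2 at -1.34 and Cxcl9 at 1.29.

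Cxcl9 (chromosome 5, 92321347 to 92328079, minus strand) draws T and NK cells that carry Cxcr3. It had 816 CPM in Lyz2-icre and 332 CPM in control monocytes, a ratio of 2.46 (2.23 to 2.73). At equal depth 33.6% of Lyz2-icre and 18.7% of control monocytes had a Cxcl9 UMI, against 10.0% and 8.87% of T cells. Cxcl9 was also higher in some other classes of the Lyz2-icre library, at 171 and 85.6 CPM in T cells (ratio 1.99), 97.2 and 33.0 CPM in NK cells (2.94) and 246 and 96.0 CPM in migratory dendritic cells (2.56). In C1q macrophages it was at 913 and 736 CPM (1.24). It was lower in cDC1, at 408 and 778 CPM (0.524), and in mast cells or basophils. The part of free RNA in the monocytes' difference was not tested. Control Cxcl9 was concentrated, with 68.7% of its UMIs in 10 cells, against 28.9% in the Lyz2-icre library. Female cells gave a log2 ratio of 1.51 and male cells 0.15. Cxcl16, a membrane-bound chemokine for Cxcr6-bearing T cells, was at 503 CPM in Lyz2-icre and 281 CPM in control monocytes.

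Ccnd1, cyclin D1, was at 288 CPM in Lyz2-icre and 121 CPM in control monocytes, with log2 ratios of 0.99 in female and 1.08 in male cells. Axl, a receptor kinase that recognises dying cells, had 217 CPM in Lyz2-icre and 110 CPM in control monocytes, and a ratio of 1.97 (1.65 to 2.38). Gatm, an enzyme of creatine synthesis, was at 228 and 112 CPM, but the log2 ratio was 1.53 in female cells and -0.17 in male cells. Flt1, a receptor of vascular endothelial growth factor, had 66.9 and 30.0 CPM, with 1.78 in female and -1.30 in male cells. The lower-expressed Serpina3g (a protease inhibitor), Aldoc (an aldolase), Ifi213 (an interferon-inducible p200 protein), Cd72 (a lectin co-receptor) and Slco3a1 (an anion transporter) had 55.5 to 60.4 CPM in Lyz2-icre monocytes and log2 ratios of 0.88 to 1.23. Flt1 and these lower-expressed genes passed the limits on level through the Lyz2-icre library alone, so over all monocytes they had to be higher.

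Among the genes that were lower, several were the monocytes' own leading genes. Hp was at 145 CPM in Lyz2-icre and 429 CPM in control monocytes, a ratio of 0.337 (0.292 to 0.389). It was seen in 19.9% of Lyz2-icre and 40.1% of control monocytes at equal depth, against 0.602% and 1.31% of T cells. The log2 ratio of Hp was -1.46 in female and -1.66 in male cells. Neutrophils had 1133 and 1503 CPM of Hp. The 6 neutrophil markers summed to 69.1 CPM in Lyz2-icre and 249 CPM in control monocytes. The 4 outside the rule summed to 61.5 and 70.8 CPM, and 1 marker gave 53.9 CPM of the Lyz2-icre sum. This sum was mostly Csf3r, at 70.2 CPM in Lyz2-icre and 68.1 CPM in control Plac8-positive monocytes, and says little about the other markers. Neutrophils were 52 of 13915 retained Lyz2-icre cells and 134 of 8724 retained control cells. S100a8, which the rule limited, had 8 UMIs in Lyz2-icre and 215 UMIs in control monocytes, with 81.4% of the latter in 10 cells. The part of neutrophil RNA in the Hp difference was not tested. Vcan had 137 CPM in Lyz2-icre and 298 CPM in control monocytes, with log2 ratios of -1.55 in female and -1.43 in male cells. Gsr, which keeps glutathione reduced, was at 141 and 289 CPM. Chil3 was at 840 CPM in Lyz2-icre and 1734 CPM in control monocytes; its log2 ratio of -1.04 was -1.58 in female and -0.10 in male cells.

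Il1a, an inflammatory cytokine, was at 43.5 CPM in Lyz2-icre and 196 CPM in control monocytes, with log2 ratios of -1.78 in female and -1.83 in male cells. Its UMIs sat in few cells, with 67.5% and 66.8% of them in 10 cells of the Lyz2-icre and control libraries. Il1a was also lower in other classes of the Lyz2-icre library, at 74.2 and 119 CPM in C1q macrophages, 239 and 669 CPM in neutrophils and 13.2 and 21.0 CPM in T cells. In the classes where it was higher, no library had more than 3 UMIs. The part of free RNA in the monocytes' difference was not tested. Prtn3 (proteinase 3, stored in granules of myeloid precursors) had 14 UMIs in 14 Lyz2-icre monocytes and 81 UMIs in 44 control monocytes. Slc7a11, the cystine importer, was at 99.6 CPM in Lyz2-icre and 217 CPM in control monocytes. Errfi1 (a feedback inhibitor of the epidermal growth factor receptor), Sorl1 (a sorting receptor), Atp2b4 (a calcium pump) and Cd244a (the receptor 2B4) had 26.1 to 59.3 CPM in Lyz2-icre monocytes and log2 ratios of -1.21 to -0.97. Sorl1, Atp2b4 and Cd244a, like Il1a and Prtn3, passed the limits on level through the control library alone, so they had to be lower. Inhba, a subunit of activin, was at 66.9 and 159 CPM, with 74.8% and 81.1% of its UMIs in 10 cells. Its log2 ratio was 0.01 in the cells that met the rule at 2000 UMIs.

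Gene lists were read next, by the number of their tested genes that were called and by their median log2 ratio, to be set beside the 0.02 of all genes and the 2.98% and 3.67% called. They were drawn up with earlier results of these data known. A gene entered when either library passed the limits on level. A gene that passed in 1 library alone, such as Il1a, Il6, Nos2, Gbp5, Isg20 or Ifit1, therefore had to differ. The interferon-gamma response stood furthest above, with 8 of 13 tested genes called higher, 0 lower and a median of 0.63. The median was 0.65 in female and 0.65 in male cells. Gbp5 and Igtp passed the limits on level through the Lyz2-icre library alone, so over all monocytes they could not be lower. The count and the median of the interferon-gamma list carry that limit. Besides Cxcl9, the transcription factor Irf1 was at 186 CPM in Lyz2-icre and 104 CPM in control monocytes. The guanylate-binding protein Gbp5 had 82.2 and 45.9 CPM, and the immunity-related GTPase Irgm1 had 83.8 and 51.0 CPM. The receptor chain Ifngr1 was not called, at 283 CPM in Lyz2-icre and 372 CPM in control monocytes.

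MHC class II genes, which present antigen to CD4 T cells, had a median of 0.57, with 3 of 7 called higher and 0 lower. H2-Ab1 (chromosome 17, 34257689 to 34269419, plus strand) was at 4716 CPM in Lyz2-icre and 2701 CPM in control monocytes, a ratio of 1.75 (1.68 to 1.81). The summed cDC2 markers, 287 CPM in Lyz2-icre and 143 CPM in control monocytes, moved with it mainly through Mgl2, at 254 and 111 CPM. Mgl2 is not particular to cDC2, and was seen at equal depth in 58.5% of Lyz2-icre and 42.1% of control C1q macrophages. The cDC2 themselves had 10199 and 9998 CPM of H2-Ab1. Their part in the difference was not tested. H2-Ab1 was also higher in Lyz2-icre C1q macrophages, at 6263 and 5223 CPM (ratio 1.20), T cells, at 1221 and 959 CPM (1.27), and NK cells, at 389 and 283 CPM (1.38). It was lower in neutrophils, at 431 and 583 CPM, and in plasmacytoid dendritic cells, at 2066 and 2389 CPM. The part of free RNA in the monocytes' difference was not tested. In the monocytes H2-Eb1 had 3328 and 1970 CPM, and Ciita, the factor that switches the class II genes on, 102 and 62.5 CPM. H2-Aa, H2-DMa, H2-DMb1 and the invariant chain Cd74 had log2 ratios of 0.51 to 0.57 and were not called at 1.5-fold. MHC class I genes had a median of 0.31, with 16 of 16 log2 ratios above 0 and 2 called higher. These 2 were Tap2 (a peptide transporter) at 99.6 and 61.8 CPM and H2-T23 at 229.6 and 150.5 CPM. H2-Q4 and H2-Q6 passed the limits on level through the Lyz2-icre library alone, so their log2 ratios had to lie above 0. The 16 of 16 and the median carry that limit. The type I interferon list had a median of 0.19, with 3 of 20 called higher and 0 lower: Ly6a (the Sca-1 antigen) at 731 and 415 CPM, Isg20 at 61.5 and 33.2 CPM and Ifit1 at 65.8 and 37.0 CPM. Isg20 and Ifit1 passed the limits on level through the Lyz2-icre library alone, so over all monocytes they had to be higher. The count and the median of the type I interferon list carry that limit. In female cells the log2 ratio of Ifit1 was -0.20. Isg15, Irf7 and Rsad2 had log2 ratios of 0.08, -0.11 and -0.14.

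Promoters of 4 genes from the lists are shown because each holds letters known to be bound by factors of the interferon, class II or NF-kappaB pathways. Sequences are from RefSeq on GRCm38.p6, 250 bases before to 50 bases after the gene's start, written along the gene. Capitals mark the GAS motif TTCNNNGAA in Irf1 (chr11:53769764-53770063, plus strand), the same motif and the interferon-stimulated response element (GAAA, any 2 bases, GAAA) in Gbp5 (chr3:142496684-142496983, plus strand), the Y box ATTGG in H2-Eb1 (chr17:34305617-34305916, plus strand), and the kB motif (GGGA, any base, TTTCC) in Cxcl3 (chr5:90785851-90786150, plus strand). Motifs were sought on both strands. Irf1 has 2 starts in the table, of which 1 is shown, and motifs other than those named for a gene are not in capitals (a kB motif in Gbp5 and a Y box in Irf1).
Irf1: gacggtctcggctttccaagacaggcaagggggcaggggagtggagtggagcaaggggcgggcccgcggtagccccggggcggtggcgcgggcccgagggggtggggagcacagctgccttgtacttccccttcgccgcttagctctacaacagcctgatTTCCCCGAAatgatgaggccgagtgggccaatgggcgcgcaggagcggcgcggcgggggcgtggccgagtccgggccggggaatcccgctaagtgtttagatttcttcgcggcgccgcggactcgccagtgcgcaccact
Gbp5: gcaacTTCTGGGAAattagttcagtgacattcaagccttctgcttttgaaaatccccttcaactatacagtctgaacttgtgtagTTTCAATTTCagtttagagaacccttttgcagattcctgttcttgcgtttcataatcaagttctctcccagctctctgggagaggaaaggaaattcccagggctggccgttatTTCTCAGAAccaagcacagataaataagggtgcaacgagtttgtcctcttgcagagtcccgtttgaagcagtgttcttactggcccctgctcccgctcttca
H2-Eb1: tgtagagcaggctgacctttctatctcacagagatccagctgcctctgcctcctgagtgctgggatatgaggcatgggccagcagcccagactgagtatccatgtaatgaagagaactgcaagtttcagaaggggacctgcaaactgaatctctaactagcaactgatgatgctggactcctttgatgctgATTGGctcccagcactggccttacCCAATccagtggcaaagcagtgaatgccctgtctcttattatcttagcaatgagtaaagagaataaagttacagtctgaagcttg
Cxcl3: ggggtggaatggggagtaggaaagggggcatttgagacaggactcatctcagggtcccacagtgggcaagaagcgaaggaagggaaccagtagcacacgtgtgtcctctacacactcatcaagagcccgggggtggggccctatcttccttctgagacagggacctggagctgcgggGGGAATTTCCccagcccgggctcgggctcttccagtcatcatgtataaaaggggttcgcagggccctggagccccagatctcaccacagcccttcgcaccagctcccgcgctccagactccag
Over the promoters of 27025 genes, 9.55% held the GAS motif, 3.99% the response element, 41.1% the Y box and 0.466% the kB motif, with overlaps allowed. Of the 10 tested interferon-gamma genes in the table, 4 held GAS and 7 the response element. All 4 tested class II genes in the table held the Y box, a short motif that many promoters hold. Of 10 tested chemokine genes 3 held the kB motif (Cxcl1, Cxcl2 and Cxcl3), and of 9 tested pro-inflammatory genes 2 did (Il6 and Nfkbia). A match describes letters in this window and is not a bound site.

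Pro-inflammatory genes lay below, with 6 of 11 called lower, 0 higher and a median of -0.63, which was -0.61 in female and -0.26 in male cells. Of those called, Il1a, Il6 and Nos2 passed the limits on level through the control library alone, so they had to be lower. The count and the median carry that limit. Nfkbia, Tnf and Ptgs2 passed in both libraries. Nfkbia, the feedback inhibitor of NF-kappaB, was at 892 CPM in Lyz2-icre and 1744 CPM in control monocytes, and was seen at equal depth in 68.2% and 83.5% of them, against 58.6% and 65.5% of T cells, which also express it. Tnf was at 64.7 and 128 CPM, Ptgs2 (cyclooxygenase 2) at 493 and 768 CPM, and Il6 and Nos2 were low, with at least 78.0% of their UMIs in 10 cells of either library. In male cells the log2 ratio of Il6 was 0.74. Il1b, the most abundant cytokine RNA of the list, had 3358 and 4561 CPM, a log2 ratio of -0.44 that was not called. At equal depth Il1b was seen in 87.8% of Lyz2-icre and 84.6% of control monocytes, against 20.3% and 24.5% of T cells. Pathogen sensors had 3 of 9 called lower and 0 higher, the lectins Clec4d and Clec4e and the amplifying receptor Trem1, between -0.66 and -0.64.

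Chemokines went both ways, with 4 of 16 called higher, 4 lower and a median of -0.01. Those called higher were Cxcl9, Cxcl16, Ccl24 and Ccl5, the last at 484 CPM in Lyz2-icre and 200 CPM in control monocytes. Ccl5 and Ccl24 lay in few cells, with 63.8% and 80.5% of Lyz2-icre UMIs, and 90.1% and 98.8% of control UMIs, in 10 cells. Called lower were Cxcl3, Ccl9, Ccl3 and Ccl4, but in male cells Ccl3 and Ccl4 had log2 ratios of 0.46 and 0.76. Cxcl3, which acts on the neutrophil receptor Cxcr2, had 56.6 CPM in Lyz2-icre and 417 CPM in control monocytes, a log2 ratio of -2.78. It was seen at equal depth in 4.17% and 17.0% of monocytes, and 85.6% and 77.2% of its UMIs lay in 10 cells. Cxcl3 was also lower in several other classes of the Lyz2-icre library. It had 15.5 and 91.3 CPM in T cells, 1.01 and 153 CPM in NK cells and 37.3 and 77.8 CPM in C1q macrophages. In neutrophils it was level, at 4005 and 4029 CPM, and in migratory dendritic cells higher, at 21.6 and 3.78 CPM. The part of free or neutrophil RNA in the monocytes' difference was not tested. Cxcl2, another ligand of Cxcr2, had 4398 and 6390 CPM in the monocytes and was not called.

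Monocyte identity genes had 1 of 20 called higher (Ly6i) and 4 lower (Hp, Vcan, Chil3 and Ifitm6), with a median of -0.16. Ccr2 was level, at 1010 CPM in Lyz2-icre and 1032 CPM in control monocytes, and Plac8 had 1998 and 2734 CPM. Transcription factors of the lineage were not called: Irf8 had 354 and 269.7 CPM, Klf4 536 and 397 CPM, Cebpb 168 and 175 CPM and Spi1 444 and 507 CPM. Macrophage maturation genes had a median of 0.01, with Axl, Cd72 and Cd63 called higher and the protease Ctsl called lower at 167 and 319 CPM. Cd72 passed the limits on level through the Lyz2-icre library alone, so it had to be higher. Adhesion and recruitment receptors had 0 of 15 called and non-classical monocyte genes 0 of 4. Osteopontin receptors had 0 of 6 called, all with log2 ratios below 0; Cd44 was at 612 and 809 CPM.

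Suppressive and alternative activation genes had 4 of 13 called lower and 0 higher. Thbs1 (thrombospondin 1) was at 909 CPM in Lyz2-icre and 1781 CPM in control monocytes, and Arg1 (arginase 1) at 538 and 816 CPM, with Inhba and Chil3 as the others. Arg1 was seen at equal depth in 28.6% of Lyz2-icre and 29.7% of control monocytes, against 11.04% and 8.21% of T cells. Cd274, the checkpoint ligand PD-L1, had 121 and 81.6 CPM and was not called. Of 14 granulocyte-precursor genes 5 passed the limits on level. Prtn3, Lcn2 and Mmp8 were called lower, and each passed through the control library alone, at 51.6, 74.6 and 78.4 CPM there, so that no median is read from this list. All Lcn2 UMIs of the Lyz2-icre library lay in 10 or fewer cells. The 4 neutrophil markers outside the rule, mostly Csf3r, summed to 61.5 CPM in Lyz2-icre and 70.8 CPM in control monocytes. The sum of all 6, 69.1 and 249 CPM, moved with this list through S100a8 and S100a9, which the rule limited. The part of neutrophil RNA in this list was not tested. Dendritic-cell-leaning genes had 1 of 3 called higher, Mgl2 at 254 and 111 CPM. Cytokine receptors had 0 of 15 called higher and 1 lower, the decoy receptor Il1r2 at 49.5 and 113 CPM, which passed through the control library alone. Glycolysis and hypoxia genes had 2 of 21 called higher and 1 lower, oxidative phosphorylation genes 0 of 21 and immediate early genes 0 of 17. Cell cycle genes had 1 of 8 called higher and a median of 0.26, which was -0.78 in female and 1.41 in male cells.

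**Figure D4:**
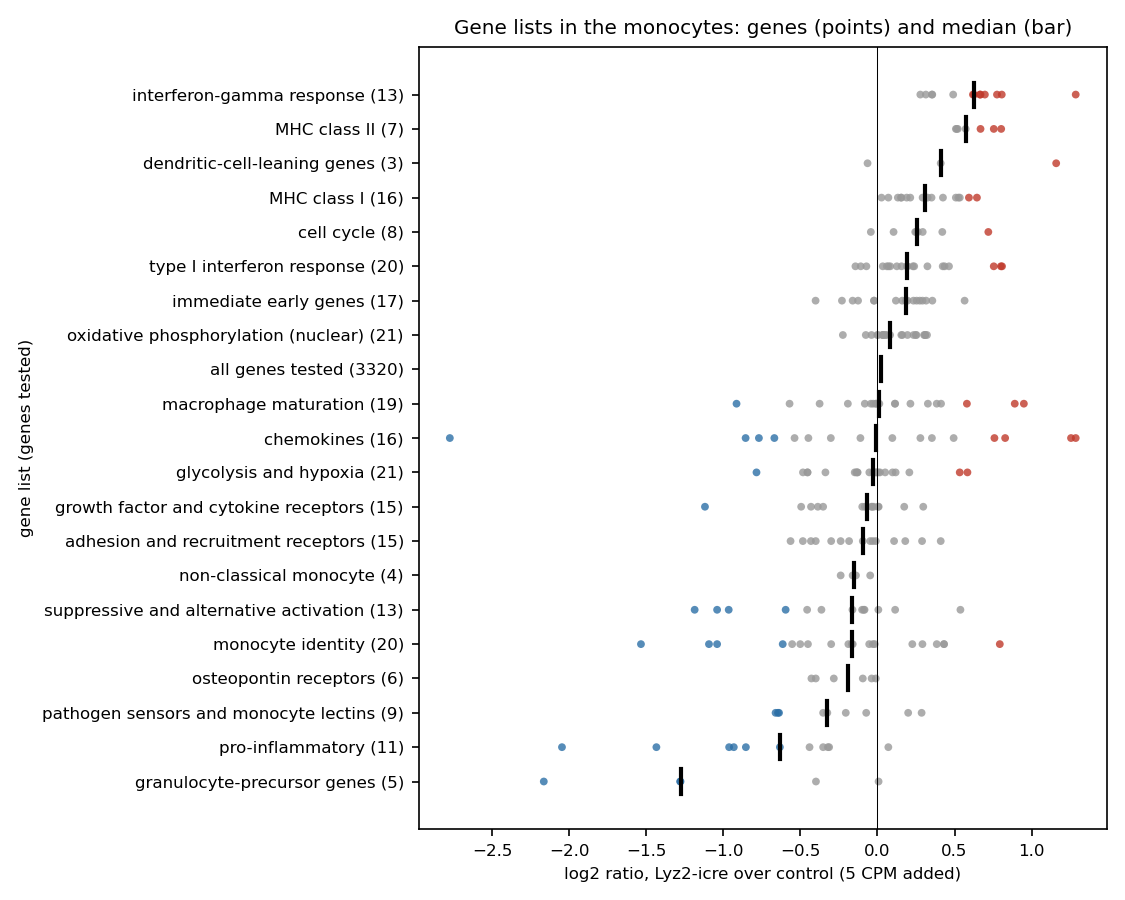
Log2 ratio of Lyz2-icre over control monocytes (horizontal) for the tested genes of each list (rows, number of genes in brackets); red points were called higher, blue lower and grey neither, and the black bar is the median. The interferon-gamma and MHC class II lists lie to the right of 0 with medians of 0.63 and 0.57, and the pro-inflammatory list to the left with -0.63. Points include genes that passed the limits on level in 1 library alone, such as Il1a, Il6, Gbp5 and Isg20, which had to differ.

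The genotypes were also set side by side within each kind of monocyte. Among Plac8-positive cells the interferon-gamma list had a median log2 ratio of 0.80, MHC class II 0.79 and type I interferon 0.44, and among Plac8-negative cells 0.31, 0.24 and -0.01. Cxcl9 was at 735 CPM in Lyz2-icre and 198 CPM in control Plac8-positive monocytes, and at 909 and 610 CPM in Plac8-negative ones. H2-Ab1 had 3784 and 1965 CPM in Plac8-positive and 6077 and 4228 CPM in Plac8-negative monocytes. Whether the difference between genotypes itself differed between the kinds of monocyte was not tested.

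Hp was at 207 CPM in Lyz2-icre and 602 CPM in control Plac8-positive monocytes, and at 59.0 and 70.6 CPM in Plac8-negative ones. Il1a had 22.8 and 123 CPM in Plac8-positive and 73.5 and 347 CPM in Plac8-negative monocytes. Vcan had 165 and 339 CPM in Plac8-positive and 98.4 and 214 CPM in Plac8-negative monocytes. Of the 99 genes called higher and 122 called lower in all monocytes, 99 and 119 kept their direction in Plac8-positive cells, and 97 and 117 in Plac8-negative cells; these cells are among those that gave the calls. The pro-inflammatory list had medians of -0.33 with and -0.73 without Plac8, and the chemokine list 0.32 and -0.43.

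**Figure D5:**
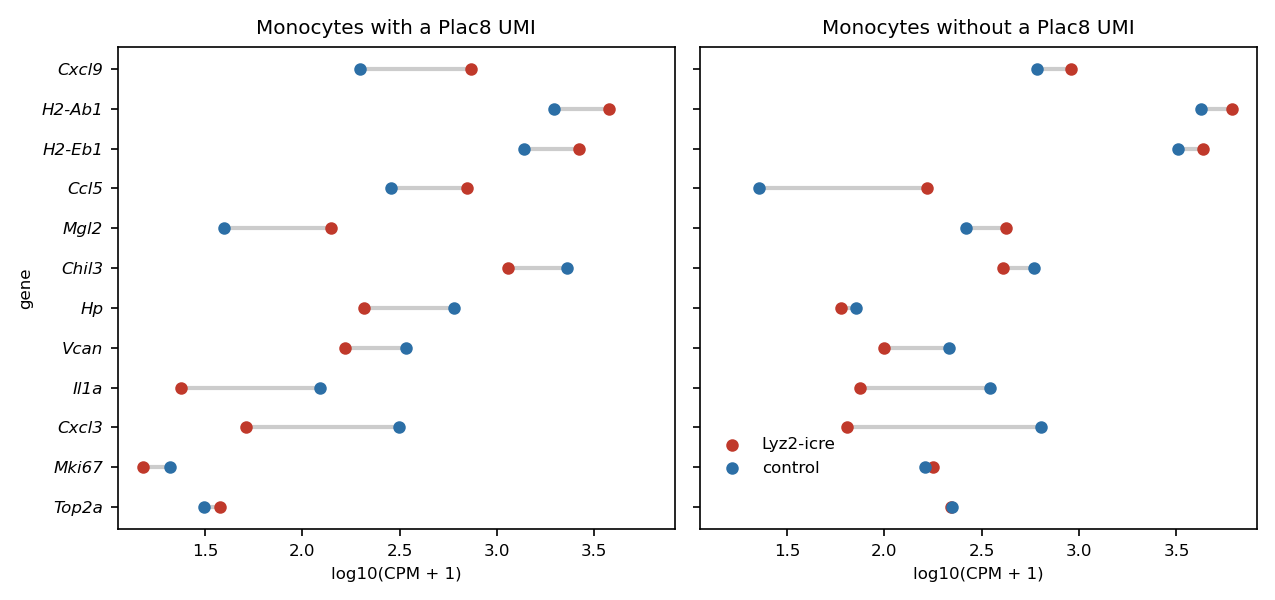
Level (log10 of CPM + 1) of 12 genes in monocytes with (left) and without (right) a Plac8 UMI at 2000 UMIs per cell, in the Lyz2-icre (red) and control (blue) libraries, joined by a grey line. Cxcl9 and H2-Ab1 lie higher and Il1a and Cxcl3 lower in Lyz2-icre monocytes of both kinds, while Mki67 and Top2a lie further apart between the kinds of monocyte than between the libraries.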

How the data were processed

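Tumour CD45-positive cells were profiled with the 10x 3-prime v3 kit, 1 library per genotype. The deposited files hold raw UMI counts per gene and cell barcode, made with Cell Ranger 8.0.1 per the file headers and with bcl2fastq 5.0.1 and mm10 per the submitters' processing notes; the annotation release is not given in the sources used here. Positions are from GENCODE vM21 on mm10.

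From the counts, cells with a minimum of 300 genes and 500 UMIs, and a mitochondrial share of 15% or less, were retained (13915 of 13944 Lyz2-icre and 8724 of 9154 control barcodes). Monocyte counts were summed per library and divided by the class total to give CPM. Log2 ratios had 5 CPM added. Intervals were exact Poisson, conditional binomial or Clopper-Pearson at 95%. Equal-depth values used cells drawn down to 2000 UMIs. No doublet caller was run. The interval code was tested on simulated data. Python 3.11.15, numpy 2.4.6, scipy 1.17.1, pandas 2.3.3 and matplotlib 3.10.9 were used.

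The monocyte rule and the gene lists were chosen with earlier results of these data known. Beside the 12 highest and 12 lowest genes, the 15 highest and 10 lowest genes against C1q macrophages were named, and the 2 highest and 2 lowest of each list at 20 CPM or more; genes named beyond these were chosen after their values were seen. A few genes that met these rules are not reported here.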

Additional observations from a re-analysis of the deposited data

Results flagged for a closer look

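The log2 ratio of Flt1 between Lyz2-icre and control monocytes was 1.78 in female and -1.30 in male cells, a difference of 3.08. It was singled out because the sexes lay on opposite sides of 0 with counting intervals clear of 1, the only such case among 96 genes and list members looked at. The difference was not tested.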

How the results depend on the processing

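No paired analysis was possible because each genotype had 1 library. Settings changed one at a time left 56 main values within their counting interval or within 1.5 times the count, and moved 31 beyond it. Under the rule on counts drawn down to 2000 UMIs (170 and 55 monocytes) the share ratio was 2.06, Spp1 -5.10, Lyz2 -1.24, genes called higher 183, and Inhba turned to 0.00582. Female cells gave a share ratio of 0.946, Spp1 -6.88, Lyz2 -1.86, 149 genes higher and a cell cycle median of -0.78. Male cells gave 1.50086, Lyz2 -0.95, 155 genes higher, Flt1 -1.30 and Gatm -0.17. With at least 1 Ly6c2 UMI 63 genes were higher. With at least 3, Lyz2 was -1.27 and the cell cycle median -0.38. Lyz2 was -1.18 with C1q under 0.1%, -1.24 as a mean of per-cell CPM and -1.22 in monocytes drawn down to 2000 UMIs, where 160 genes were higher. Spp1 was -6.03 without cells above 20000 UMIs and -4.86 with 20 CPM added. Without minimum levels 429 genes were higher and 398 lower, and at 2-fold 12 and 33. Settings chosen after seeing the data were 3000 to 8000 UMIs (Lyz2 -1.20, 211 higher, 225 lower), Plac8-positive cells (Spp1 -5.08, Lyz2 -1.23, 179 higher), Plac8-negative cells (Spp1 -6.35, Lyz2 -1.50) and at most 4 collagen UMIs, which moved none of these. Of the 99 and 122 called genes, 62 and 95 were also called in female cells, 31 and 38 in male cells, 47 and 51 under the rule on drawn-down counts, and 68 and 89 at 3000 to 8000 UMIs. The causes were not tested. Depth limits genes of few UMIs, and 183 control cells limit any gene held by few of them.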

Other observations

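Some genes with large ratios in the monocytes fell outside the naming rule and are given as values chosen after they were seen. Xcl1, a chemokine of NK and T cells, had 127 CPM in Lyz2-icre and 1.28 CPM in control monocytes, with 123 of 234 Lyz2-icre UMIs in 1 cell. Lrg1, a secreted glycoprotein, had 1 UMI in Lyz2-icre and 96 UMIs in control monocytes. The collagen gene Col3a1 had 21.2 CPM in Lyz2-icre and 299.7 CPM in control monocytes, and 1 control cell held 462 of the 470 control UMIs. The mitochondrial ribosomal RNA mt-Rnr2 was at 1542 CPM in Lyz2-icre and 5392 CPM in control monocytes, beside the mitochondrial shares of 0.683% and 1.59%.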
